A study of Mus musculus with 9 samples.

Results

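Caveolae are flask-shaped pits of the plasma membrane, and white adipocytes and endothelial cells carry many of them. The genes described here encode their coat: the caveolins Cav1, Cav2 and Cav3, which insert into the inner leaflet of the membrane, the cavins Cavin1, Cavin2 and Cavin3, cytosolic proteins that assemble over the caveolins, and Ehd2, an ATPase that sits at the neck of the pit and holds it at the surface. The 7 genes were found by their symbols in the annotation of the array's probes. They had 14 probes among 45281 on the array, and were 7 of 19057 named genes.

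RNA of epididymal fat was measured on Illumina mouse bead arrays in 9 mice of the FVB/N strain, 1 array per mouse. The 5 mice of genotype tg/tg (165, 152, 147, 163 and 164) were transgenic for Tm5NM1, one of the cytoskeletal tropomyosins that Tpm3 encodes, and the 4 mice of genotype wt/wt (141, 142, 143 and 159) were wild type. All mice were 3 months of age and had fasted for 14 to 16 h. The sources used here do not give the promoter of the transgene, the number of founder lines or whether the mice were littermates.

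In adipocytes Cav1 is needed for caveolae to form, Cav2 reaches the surface together with Cav1, and Cavin1 is needed for the coat to assemble. Loss of Cav1 or Cavin1 in mice removes caveolae from fat and leaves the animals lean with altered lipid handling. Cavin2 helps to shape the membrane and Cavin3 binds protein kinase C delta. Cav3 is the caveolin of striated muscle. The study's tropomyosin is a protein of actin filaments, to which caveolae are linked.

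The starts of transcription are shown for the 5 detected genes that have an entry in the RefSeq promoter table, since their RNA levels are what the results compare; Cavin3 is not shown. The sequences are from RefSeq on build GRCm38.p6, 5′ to 3′ on the gene's strand, and capitals mark 3 common promoter elements on either strand. The GC box was searched as GGGCGG. The second element, which is named for its letters, was CCAAT. The TATA box was searched for with the letters TATAAA. RefSeq lists 2 starts for Cav1, at chr6:17306085-17306384 (plus strand, printed here) and at chr6:17307390-17307689. The window of Cav2 lies at chr6:17280935-17281234 (plus strand), that of Cavin1 at chr11:100970568-100970867 (minus strand), that of Cavin2 at chr1:51288876-51289175 (plus strand) and that of Ehd2 at chr7:15967486-15967785 (minus strand). Cavin1 has a further, nearly coincident start in RefSeq, which is not printed.
Cav1: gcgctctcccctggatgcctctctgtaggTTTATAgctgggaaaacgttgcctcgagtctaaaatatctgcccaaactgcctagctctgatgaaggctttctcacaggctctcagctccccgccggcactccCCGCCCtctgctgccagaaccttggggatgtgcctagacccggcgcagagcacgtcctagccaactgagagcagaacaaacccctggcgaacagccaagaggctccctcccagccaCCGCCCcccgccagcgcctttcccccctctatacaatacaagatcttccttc
Cav2: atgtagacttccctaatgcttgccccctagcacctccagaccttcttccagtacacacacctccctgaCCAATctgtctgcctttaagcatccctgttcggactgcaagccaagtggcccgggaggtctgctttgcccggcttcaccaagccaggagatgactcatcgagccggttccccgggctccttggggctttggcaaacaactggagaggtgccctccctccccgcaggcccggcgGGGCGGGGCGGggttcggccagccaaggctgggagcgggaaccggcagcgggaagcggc
Cavin1: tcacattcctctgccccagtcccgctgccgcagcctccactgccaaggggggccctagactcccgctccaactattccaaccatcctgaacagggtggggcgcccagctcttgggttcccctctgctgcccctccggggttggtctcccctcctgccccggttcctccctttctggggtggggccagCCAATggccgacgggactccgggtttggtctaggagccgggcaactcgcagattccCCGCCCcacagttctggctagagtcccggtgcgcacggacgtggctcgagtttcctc
Cavin2: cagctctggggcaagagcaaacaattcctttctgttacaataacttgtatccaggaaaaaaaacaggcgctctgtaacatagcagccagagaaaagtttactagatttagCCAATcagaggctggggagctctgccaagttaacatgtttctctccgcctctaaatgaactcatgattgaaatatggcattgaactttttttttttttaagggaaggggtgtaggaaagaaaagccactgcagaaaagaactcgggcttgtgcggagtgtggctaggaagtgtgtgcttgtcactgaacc
Ehd2: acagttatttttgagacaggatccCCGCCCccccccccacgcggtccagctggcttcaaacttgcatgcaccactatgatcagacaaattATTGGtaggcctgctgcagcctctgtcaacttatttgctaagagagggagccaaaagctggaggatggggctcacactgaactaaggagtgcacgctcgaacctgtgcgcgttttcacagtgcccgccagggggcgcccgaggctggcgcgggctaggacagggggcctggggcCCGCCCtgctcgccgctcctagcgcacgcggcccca

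The first Cav1 window held 2 GC boxes and 1 TATA box, and the second held none of the 3 motifs. The Cav2 window held 2 overlapping GC boxes and 1 CCAAT box, and that of Cavin1 held 1 of each. The Cavin2 window held 1 CCAAT box and no GC box, and that of Ehd2 held 2 GC boxes and 1 CCAAT box. Among 32851 windows of the same length, 35.7% held a GC box, 37.4% a CCAAT box and 13.6% a TATA box, so these matches are common. The GC content was 59.3% in the first Cav1 window, 64.3% for Cav2, 66.7% for Cavin1, 43.3% for Cavin2 and 62.0% for Ehd2, against a median of 52.7% over all windows. Cav2 and Cav1 are neighbours on chromosome 6, with 0 other genes starting between them in the RefSeq table.

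The arrays were read before the genes. The median intensity was 142 to 147 in wild-type mice 142, 143 and 159 and 169 to 192 in the other 6 mice, so all dimmer arrays were wild type and mouse 141 was the only wild-type mouse among the brighter ones. A probe counted as detected at a detection p under 0.05, which held for 22239 to 23313 probes per array. The markers of fat were present: adiponectin (Adipoq) read 15.92 ± 0.06 (SD, n = 5) on the normalized log2 scale in transgenic and 15.86 ± 0.05 (SD, n = 4) in wild-type mice. Tpm3, whose product the transgene encodes, differed by 0.54 at its brightest probe (limma adjusted p = 0.452). Of the 23354 probes detected on at least 4 arrays, limma with Benjamini-Hochberg adjustment called 16, all lower in transgenic fat. Each array stands for 1 animal by its number, and precision is limited by how few arrays there are.

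Of the 7 genes, 6 were detected on all 9 arrays and Cav3 on none. All 11 detected probes passed the filter through both groups. The question asked of them was whether transgenic and wild-type fat differ in the RNA of the caveolar coat. All 6 genes read higher on average in transgenic fat, as did 57.45% of all tested probes. The 6 genes had a median log2 difference of 0.37, beside 0.04 over the 12171 named genes tested. None of them passed the test (0 of 6 genes and 0 of 11 probes at an adjusted p under 0.05, where 0.0685% of all probes passed). At an unadjusted p under 0.05, 1 of the 11 probes was higher and 0 were lower, against 6.05% of all probes higher and 3.40% lower. The groups overlapped at all 11 probes, and 3.21% of all probes had groups that did not overlap. In tissue RNA, fewer cells of a type and less RNA per cell cannot be told apart.

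**Figure D1:**
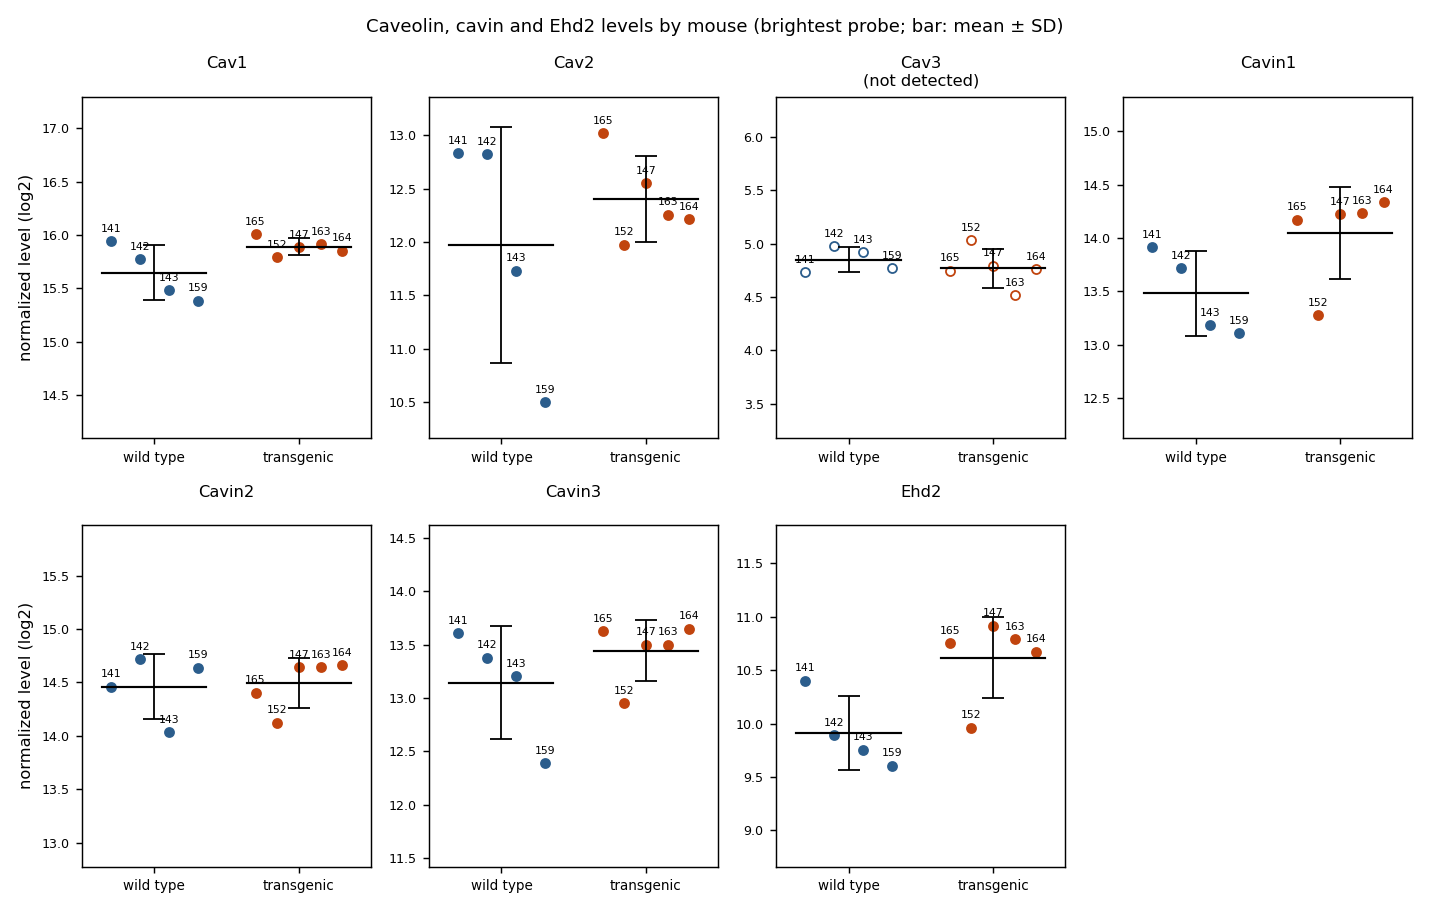
Normalized log2 level (vertical axis) of the brightest probe of each gene in each mouse, with wild-type mice in blue and transgenic mice in red. Bars give the mean ± SD (n = 4 and n = 5), each panel spans the same number of log2 units, and open circles mark Cav3, which was not detected on any array. Mouse 152 is the lowest transgenic mouse for all detected genes, and mouse 159 the lowest wild-type mouse for all of them except Cavin2.

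Cav1, the main structural caveolin, was among the brightest probes on every array. Its normalized level was 16.01, 15.79, 15.89, 15.92 and 15.85 in transgenic mice 165, 152, 147, 163 and 164. It was 15.94, 15.77, 15.48 and 15.38 in wild-type mice 141, 142, 143 and 159. All 5 transgenic mice lay within a narrow band of 0.22, while wild-type mice spanned 0.56, and wild-type mice 141 and 142 lay inside or near the transgenic band. The difference was 0.24, with a 95% confidence interval of -0.08 to 0.56 (limma adjusted p = 0.626). It was 0.16 without wild-type mouse 159, 0.34 without wild-type mouse 141 and 0.12 with array weights.

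The Cav1 probe lay near the top of the range, which limits what a difference can show there. In the deposited intensities it reached 90.8% to 98.7% of the brightest probe in the transgenic mice and 92.9% in wild-type mouse 141. It reached 55.7% to 74.8% in the other 3 wild-type mice. Among all 45281 probes it ranked between 2 and 56 on transgenic arrays and between 12 and 111 on wild-type arrays. Quantile normalization sets such a value by its rank, and by the 75th percentile scaling the difference was 0.07 in place of 0.24.

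Cav2, the partner of Cav1, spread more than any other detected gene of the set. It read 13.02, 11.97, 12.55, 12.26 and 12.21 in transgenic mice 165, 152, 147, 163 and 164. It read 12.83, 12.82, 11.73 and 10.50 in wild-type mice 141, 142, 143 and 159. The wild-type mice thus spanned 2.33 log2 units and enclosed all transgenic mice but 165. The difference was 0.43 (95% confidence interval -0.58 to 1.44, limma adjusted p = 0.806). It was -0.06 without wild-type mouse 159 and -0.07 with array weights, which gave that mouse the least weight. Without wild-type mouse 141 the difference was 0.72. A dimmer Cav2 probe was not detected on any array.

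Cav3, the muscle caveolin, was not detected on any of the 9 arrays, at 4.52 to 5.03, so no difference is given. Of 10 markers of striated muscle, Myh1, Myh4, Ckm and Tnnt3 also failed the filter and 6 were tested. The light chain Myl1 read highest of these, at 12.70 ± 0.50 (SD, n = 5) in transgenic and 12.60 ± 0.62 (SD, n = 4) in wild-type fat. The other tested markers read far lower, with means of 5.98 to 8.975 in transgenic and 6.02 to 9.63 in wild-type fat. Cavin4, the cavin of muscle, was detected on all arrays at a low level, at 5.97 ± 0.29 (SD, n = 5) in transgenic and 6.02 ± 0.20 (SD, n = 4) in wild-type fat.

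Cavin1 (also called Ptrf), the cavin on which the coat depends, read 14.17, 13.28, 14.22, 14.23 and 14.34 in transgenic mice 165, 152, 147, 163 and 164. It read 13.91, 13.72, 13.18 and 13.11 in wild-type mice 141, 142, 143 and 159. In 4 of 5 transgenic mice it was above all wild-type mice, and mouse 152 lay among the lower wild-type mice. The difference was 0.57, or 1.48-fold (95% confidence interval -0.0032 to 1.13 on the log2 scale, limma adjusted p = 0.530). Without mouse 152 it was 0.76 (limma adjusted p = 0.118). With any other mouse left out, it ran from 0.44 (without 159) to 0.71 (without 141). The limma adjusted p then lay between 0.507 (without 141) and 0.812 (without 163).

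A dimmer Cavin1 probe gave another picture. It read 11.02 ± 0.53 (SD, n = 5) in transgenic and 10.89 ± 0.83 (SD, n = 4) in wild-type fat, a difference of 0.13 (95% confidence interval -0.74 to 1.004, limma adjusted p = 0.939). No transgenic mouse was above all wild-type mice there, since mouse 142 read highest of all, at 11.78. Over the 9 mice the 2 probes correlated with r = 0.77.

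Cavin2 (also called Sdpr) was the steadiest of the cavins. It read 14.40, 14.12, 14.64, 14.64 and 14.66 in transgenic mice 165, 152, 147, 163 and 164. It read 14.46, 14.71, 14.03 and 14.64 in wild-type mice 141, 142, 143 and 159. Both groups covered nearly the same range, and mouse 159, low for the other genes, was not low here. The difference was 0.03 (limma adjusted p = 0.968), with a 95% confidence interval of -0.37 to 0.44, and its sign turned under 75th percentile scaling and without mouse 143, 147, 163 or 164.

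Cavin3 (also called Prkcdbp) read 13.62, 12.95, 13.50, 13.50 and 13.65 in transgenic mice 165, 152, 147, 163 and 164. It read 13.60, 13.38, 13.20 and 12.39 in wild-type mice 141, 142, 143 and 159. Only mice 165 and 164 were above all wild-type mice. The difference was 0.30 (95% confidence interval -0.26 to 0.86, limma adjusted p = 0.740). It was 0.05 without wild-type mouse 159 and 0.45 without wild-type mouse 141. The dimmer Cavin3 probe differed by 0.09 (limma adjusted p = 0.953) and correlated with the brighter one with r = 0.92.

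Ehd2, which stabilises caveolae at the surface, showed the largest difference of the set. Its brightest probe read 10.76, 9.96, 10.91, 10.79 and 10.67 in transgenic mice 165, 152, 147, 163 and 164. It read 10.40, 9.89, 9.76 and 9.60 in wild-type mice 141, 142, 143 and 159. Transgenic mice other than 152 were above all wild-type mice, and mouse 152 was above 3 of the 4. The difference was 0.71, or 1.63-fold (95% confidence interval 0.20 to 1.21 on the log2 scale), with an unadjusted p of 0.0114 and a limma adjusted p of 0.407. Without mouse 152 it was 0.87 (limma adjusted p = 0.0852). With any other mouse left out, it ran from 0.60 (without 159) to 0.87 (without 141). The limma adjusted p then lay between 0.391 (without 141) and 0.745 (without 163).

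The 4 tested Ehd2 probes differed in size. The next brightest probes differed by 0.52 (limma adjusted p = 0.624) and 0.41 (0.806), and the dimmest, at about 6 on the log2 scale, by 0.01 (0.993). A further Ehd2 probe was not detected on any array. The brightest probe correlated with the other 3 with r = 0.91, 0.60 and 0.39 over the 9 mice. Taking the mean over all tested probes of a gene in place of the brightest, the differences were 0.41 for Ehd2, 0.35 for Cavin1 and 0.20 for Cavin3. Which transcripts each probe detects was not analysed here.

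**Figure D2:**
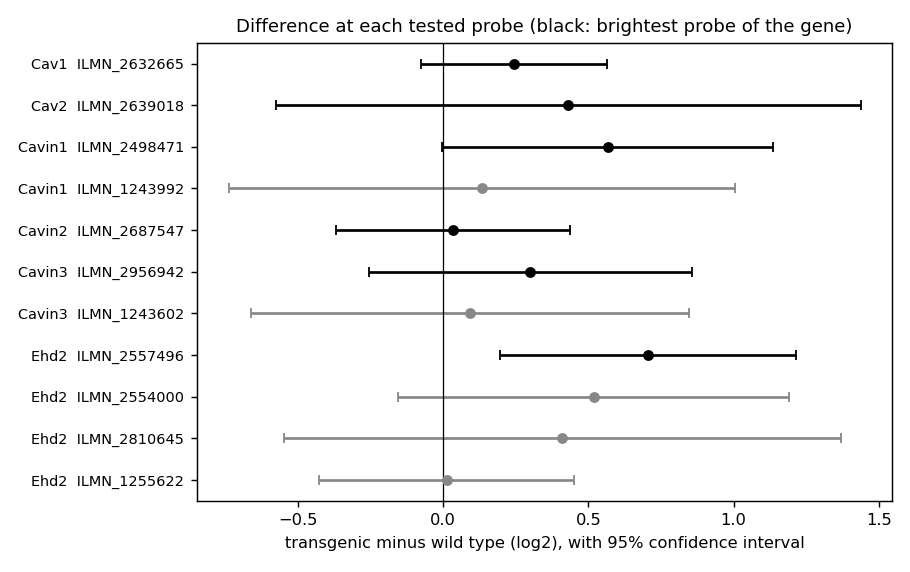
Difference between transgenic and wild-type fat in log2 units (horizontal axis) at each of the 11 tested probes, with the 95% confidence interval from limma. The intervals of all probes except the brightest Ehd2 probe (0.20 to 1.21) include 0, that of the brightest Cavin1 probe barely, and the probes of 1 gene do not give the same size.

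The differences between genotypes changed with the scaling between arrays and with their brightness set as a block. The part of brightness in the coat genes' values was not tested. Wild-type mouse 141, whose array was as bright as those of the transgenic mice, lay within the transgenic range for all 6 genes. Mouse 142, on a dimmer array, lay within it for Cav2, Cavin1 and Cavin3, slightly below it for Cav1 and Ehd2 and above it for Cavin2. Of the other dimmer arrays, mouse 143 lay within it only for Cavin3 and mouse 159 only for Cavin2, and otherwise both lay below it. Mouse 152, on the brightest array, read lowest of the transgenic mice for all 6 genes. For Cavin1 (13.91) and Ehd2 (10.40), mouse 152 was the only transgenic mouse below mouse 141. The other transgenic mice read 14.17 or more for Cavin1 and 10.67 or more for Ehd2. With the brightness set as a block, which leaves mouse 141 alone against the transgenic mice, the differences were -0.053 for Cav1, -0.43 for Cav2, 0.13 for Cavin1, 0.036 for Cavin2, -0.16 for Cavin3 and 0.22 for Ehd2 (limma adjusted p = 0.99993 for each). That fit was chosen after seeing the data, and it rests on the assumption that a lone mouse varies like the others. Brightness and genotype can therefore hardly be told apart here. Without normalization between arrays the median over all tested probes was itself 0.34 higher in transgenic fat, and 21.0% of all probes passed, 4850 of 4910 as higher. In that setting Ehd2 (difference 1.02, limma adjusted p = 0.0311) and Cavin1 (difference 0.86, limma adjusted p = 0.0443) passed, and relative to the median shift their differences were close to those after normalization. Cav1, Cav2, Cavin2 and Cavin3 did not pass there, with limma adjusted p between 0.0512 and 0.169.

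**Figure D3:**
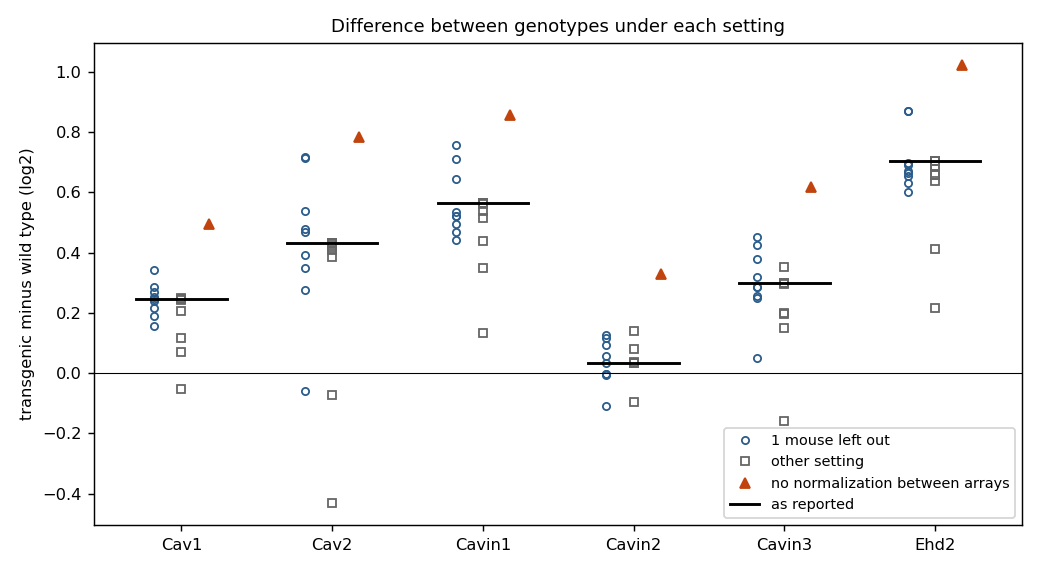
Difference between transgenic and wild-type fat in log2 units (vertical axis) for each gene as reported (black line), with each mouse left out in turn (open circles), under other settings (open squares) and without normalization between arrays (triangles). The triangles lie highest for all 6 genes, only Cavin1 and Ehd2 stay above 0 in every setting, and the lowest squares of Cav1, Cav2 and Cavin3 are those with the brightness set as a block.

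Several members of the coat varied together between mice, as did many other genes on these arrays. Among wild-type mice, Cav1, Cavin1, Cavin3 and Ehd2 read highest in mouse 141, then 142, 143 and 159, and Cav2 followed the same order with mice 141 and 142 nearly equal. In transgenic mouse 152 all 6 genes read lowest of the transgenic group. Across the 9 mice, 9 of the 15 pairs of genes correlated at an adjusted p under 0.05 (Pearson's r, exact permutation test, two-sided, Benjamini-Hochberg over 15 pairs), and 2 did by Spearman's rho. All 9 were among the 10 pairs without Cavin2. The share of pairs of other genes that would pass the same test was not computed, so the count has no background beside it. High correlations were common on these arrays: of 12170 named genes, 1673 had a higher r with Cavin1 than Cav2 did, a pair among the 9, and 555 had a higher r with Cavin1 than Cav1 did.

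The closest pair was Cavin1 with Ehd2, with Pearson's r = 0.94 (adjusted p = 0.00451 from an exact permutation p of 0.000438) and Spearman's rho = 0.87 (adjusted p = 0.0465 from an exact permutation p of 0.00451). It kept r = 0.89 without the 2 mice farthest from the median of Cavin1 and 0.93 on deviations from the genotype means. Cavin1 with Cavin3 gave Pearson's r = 0.85 (adjusted p = 0.00451 from an exact permutation p of 0.000827) and Spearman's rho = 0.85 (adjusted p = 0.0465 from an exact permutation p of 0.00621), with 0.89 and 0.84 in those repeats.

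Cav1 with Cav2, the neighbours that bind each other, gave Pearson's r = 0.87 (adjusted p = 0.00641 from an exact permutation p of 0.00171) and Spearman's rho = 0.82 (adjusted p = 0.0519 from an exact permutation p of 0.0108). On deviations from the genotype means r was 0.92, but it was 0.51 once mice 143 and 159, the most extreme in Cav1, were left out. Cav1 with Cavin1 gave Pearson's r = 0.84 (adjusted p = 0.00726 from an exact permutation p of 0.00242) and Spearman's rho = 0.68 (adjusted p = 0.0966 from an exact permutation p of 0.0503), and 0.59 without those mice. Both relations were thus weaker without these 2 wild-type mice, whose arrays are among the 3 dimmer ones.

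Cavin2 stood apart in this comparison. Its 5 pairs gave r between 0.10 and 0.55, with adjusted exact permutation p between 0.176 and 0.797, whereas the other 10 pairs gave r between 0.63 and 0.94. A test that the pairs with Cavin2 correlate less was not run. Within the 6 brighter arrays, which are the transgenic mice and mouse 141, r ran from 0.39 to 0.94 over the pairs without Cavin2 and from 0.14 to 0.92 over those with it, so the separation of Cavin2 did not hold there. The 3 dimmer arrays were too few for a value. The count of 9 pairs fell to 4 without wild-type mouse 159.

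**Figure D4:**
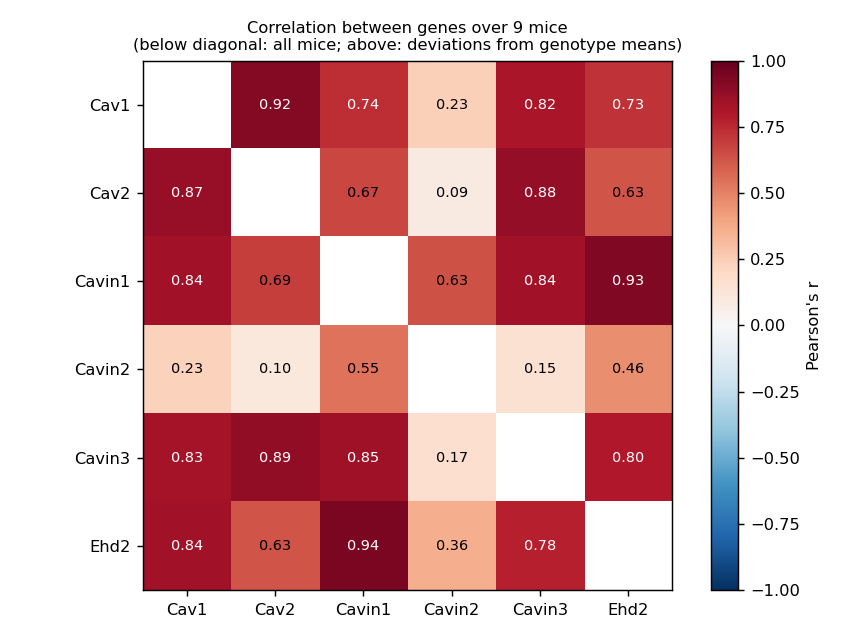
Pearson's r between each pair of the 6 detected genes over 9 mice (below the diagonal) and on deviations from the genotype means (above it), with colour running from -1 (blue) to 1 (red). The row and the column of Cavin2 hold the palest cells, and Cavin1 with Ehd2 the strongest r over all mice (0.94).

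The genes most like Cav1 and Cavin1 over the 9 arrays were named by the highest Pearson's r among genes outside the set, as a description. For Cav1 these were the adhesion receptor gene Adgra3 (r = 0.97), the Rab GTPase-activating Rabgap1l (0.97), the zinc finger gene Zfp820 (0.96), the helicase gene Dhx32 (0.96) and Btbd10 (0.96). For Cavin1 they were the inositol phosphatase Inpp5a (0.99), Mllt3 (0.99), the microtubule-associated Map7d3 (0.98), the chaperonin-like Bbs10 (0.98) and the adenylate kinase Ak3 (0.98). On deviations from the genotype means r stayed between 0.94 and 0.99 for these 10 genes. None of them passed the test between genotypes, with limma adjusted p between 0.465 and 0.702. For comparison, the number of 12170 named genes with a higher r to Cav1 was 124 for Cav2, 260 for Ehd2, 270 for Cavin1, 302 for Cavin3 and 4768 for Cavin2. With Cavin1 it was 45 for Ehd2, 484 for Cavin3, 555 for Cav1, 1673 for Cav2 and 2767 for Cavin2.

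Genes that vary with the growth of a fat pad, taken as Mest, Sfrp5, Npr3 and Bmp3, were set against Cav1 and Cavin1 across mice, on the same arrays of unequal brightness, and not against the other coat genes. Npr3, the clearance receptor for natriuretic peptides, correlated with Cav1 with r = 0.92 and with Cavin1 with r = 0.93, and Mest, an imprinted gene of the hydrolase fold, with r = 0.93 and 0.83. Bmp3, a secreted inhibitor of BMP signals, correlated with Cav1 with r = 0.89 and with Cavin1 with r = 0.96, and Sfrp5, a secreted Wnt binder, with r = 0.82 and 0.91. The number of 12170 named genes with a higher r to Cav1 was 20 for Mest, 26 for Npr3, 109 for Bmp3 and 359 for Sfrp5. With Cavin1 it was 18 for Bmp3, 84 for Npr3, 167 for Sfrp5 and 608 for Mest. Mice 143 and 159 read lowest of the wild-type mice for each of these genes, as for Cav1 and Cavin1. The correlations were not repeated without these mice or on deviations from the genotype means, so how far they rest on them was not tested.

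All 4 read higher on average in transgenic fat (median 1.06), beside 57.45% of all tested probes. Of these 4 genes, 0 passed, also at an unadjusted p under 0.05. The differences were 0.90 for Npr3, 1.47 for Bmp3, 1.23 for Mest and 0.72 for Sfrp5 (limma adjusted p between 0.538 and 0.718). Mest read 14.30, 13.08, 14.64, 13.36 and 14.23 in transgenic mice 165, 152, 147, 163 and 164. It read 14.73, 13.35, 11.96 and 10.73 in wild-type mice 141, 142, 143 and 159. The wild-type mice kept the order they had for Cav1, and in transgenic mouse 152 Mest was again the lowest of its group.

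**Figure D5:**
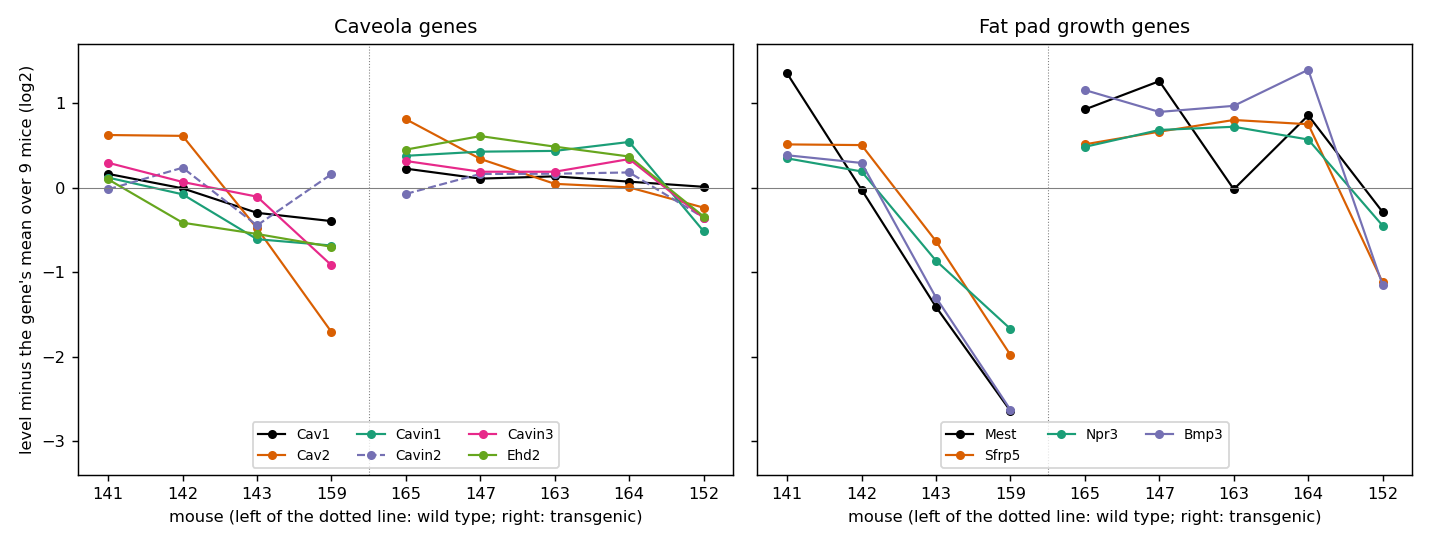
Level of each gene minus its mean over the 9 mice in log2 units (vertical axis) in each mouse (horizontal axis), for the 6 detected coat genes (left) and 4 fat pad growth genes (right), where lines join the values of 1 gene and mice have no order in time. Mice 143, 159 and 152 lie low for most genes of both sets. Exceptions are Cav1 in mouse 152, which lies near its mean, and Cavin2 (dashed) in mouse 159.

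Other genes of the caveolar membrane gave no call. For this list and those below, the background is that 57.45% of all tested probes read higher. At an unadjusted p under 0.05, 6.05% of all tested probes were higher and 3.40% lower. Of 10 listed genes, 9 were tested, 6 read higher and 3 lower, and 0 passed in limma (median 0.10), with 0 at an unadjusted p under 0.05. The flotillins, which scaffold membrane domains without caveolin, read higher by 0.28 (Flot2) and 0.31 (Flot1), and Pacsin3, a membrane-bending F-BAR protein, by 0.39 (limma adjusted p = 0.568, 0.639 and 0.575). Ehd1, Ehd4 and Ehd3, relatives of Ehd2 in endosome traffic, differed by 0.10, 0.10 and -0.09, and the F-BAR proteins Pacsin2 by 0.20 and Pacsin1 by -0.42 (limma adjusted p between 0.683 and 0.962).

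Among 12 genes for caveola cargo or partners of caveolins, 6 read higher and 6 lower, and 0 passed (median -0.01), with 1 at an unadjusted p under 0.05. Filamin A (Flna), an actin crosslinker that binds Cav1, differed by 0.33 (limma adjusted p = 0.513), the endothelial nitric oxide synthase Nos3 by -0.33 (0.759) and the fatty acid receptor Cd36 by 0.36 (0.778). The insulin receptor Insr differed by -0.18 (limma adjusted p = 0.800) and the glucose transporter Slc2a4 by -0.03 (0.986).

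Markers of the cell types that carry caveolae were set beside these values. The list level given here is the mean of normalized log2 levels over the tested markers. Of 11 tested adipocyte markers, of 12 listed, 7 read higher and 4 lower and 0 passed (median 0.11), with 1 at an unadjusted p under 0.05. Their level was 11.75 to 12.64 in transgenic and 11.73 to 12.43 in wild-type mice, lowest in mouse 152 and in mouse 159. The fatty acid binding protein Fabp4 differed by 1.27 (limma adjusted p = 0.369), the lipase Pnpla2 by -0.32 (0.638) and leptin (Lep) by 0.52 (0.672). Fabp4 was read at a probe far dimmer than that of Adipoq, at 9.98 ± 0.45 (SD, n = 5) in transgenic and 8.71 ± 0.83 (SD, n = 4) in wild-type fat. Lep read 13.82 in mouse 159 and 14.12 in mouse 143, against 15.38 and 15.27 in wild-type mice 141 and 142.

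Of 14 listed endothelial markers, 13 were tested and 0 passed. All 13 read higher in transgenic fat (median 0.20), beside 57.45% of all tested probes. At an unadjusted p under 0.05, where 6.05% of all tested probes were higher, 3 of the 13 were higher. One of these, the transcription factor gene Erg, was detected in 4 of 5 transgenic and 1 of 4 wild-type mice. It thus entered the test through the group where it reads high, so its difference is not given; without it, 12 of 12 read higher and 2 were at an unadjusted p under 0.05. The level over all 13 tested markers, Erg included, was 10.86 to 11.93 in transgenic mice, lowest in mouse 152, and 11.09 to 11.51 in wild-type mice. The adrenomedullin receptor component Ramp2 differed by 0.42 and the receptor kinase Tie1 by 0.61 (limma adjusted p = 0.458 and 0.486). In mouse 159 the endothelial level was 11.49, near the top of its group, while its coat genes other than Cavin2 were the lowest of their group. The part of these cell types in the coat genes' values was not tested.

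The epididymis, the organ beside the pad, was followed through 12 tested markers of 14 listed. All 12 were detected in every wild-type mouse, but most in few or no transgenic mice. Most thus entered the test through the group where they read high, and no count of calls is given. Defb48, a defensin gene detected in 4 of 5 transgenic mice, fell, with a log2 difference of -8.98 (limma adjusted p = 0.000218, where 0.0685% of all probes passed). Cst11 and Adam7, detected in 5 and 4 of 5 transgenic mice, differed by -6.16 and -5.86 and did not pass (limma adjusted p = 0.131 and 0.448). The lipocalin genes Lcn10 and Lcn9 were detected in 1 and 0 of 5 transgenic mice, and no fold is given for them. The level of the 12 markers is given to describe single mice and is not read as a difference between groups. In transgenic mice it averages in undetected values near the floor, such as Lcn9 at 4.64 ± 0.03 (SD, n = 5). Among transgenic mice it was highest in mouse 152, at 10.34, and next in mouse 147, at 7.43. In wild-type mice it was 13.72 in mouse 141, 10.94 in 142, 13.78 in 143 and 12.34 in 159. The coat genes read lowest of the transgenic group in mouse 152, and among wild-type mice the order of the epididymal level was not that of the coat genes. The part of epididymal RNA in the coat genes' values was not tested.

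All 10 tested mesothelial markers, of 12 listed, read lower and 0 passed (median -0.82). At an unadjusted p under 0.05, 1 was lower, beside 3.40% of all tested probes. The level of the list was 7.41 to 9.18 in transgenic and 8.98 to 9.90 in wild-type mice. The markers with the lowest p were the uroplakin Upk1b (-2.46), the keratin Krt7 (-0.65) and Gpm6a (-0.81), at limma adjusted p between 0.418 and 0.610. The part of these markers in the coat genes' values was not tested.

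The remaining 4 lists gave no call, and at an unadjusted p under 0.05 they held 2 stromal genes higher (Pdgfrb and Col1a1) and 1 lower (Pdgfra). The genes said to lead a list are those with its lowest p, whether higher or lower in transgenic fat. Smooth muscle markers read higher at 5 of 8 tested genes (median 0.05), led by Smtn (0.26), Lmod1 (-0.34) and Myh11 (0.30). Striated muscle markers read higher at 3 of 6 (median -0.09), led by Acta1 (-0.65), Actn3 (-0.28) and Tnni2 (0.39). Macrophage markers read higher at 3 of 7 (median -0.02), led by Cd163 (-0.43), Adgre1 (0.41) and Csf1r (0.19). Stromal markers read higher at 7 of 9 (median 0.23), led by Pdgfra (-0.38), Pdgfrb (0.41) and Col1a1 (0.52). Limma adjusted p lay between 0.504 and 0.837 for these 12 genes.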

How the data were processed

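Values were used from 2 deposited tables covering 45281 probes on 9 arrays. The series matrix holds deposited intensities on a linear scale, and the table called non-normalized holds intensities and, per the file headers, Illumina's detection p-value. The sources used here do not state how the authors scaled them or which image software they used. RNA was extracted with Trizol, cleaned on columns and labelled with biotin as cRNA, per the labels' protocols. Detection p-values fell without exception as the series matrix values rose, but not with those of the other table, which were 0.8 to 0.95 of the series matrix on 8 arrays and equal to it for mouse 147, so the series matrix was used.

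Intensities were processed with neqc in limma 3.58.1 (R 4.3.3): background from detection p-values, an offset of 16, quantile normalization and log2. The 23354 probes detected (p under 0.05) on 4 or more arrays were fitted with lmFit and eBayes, transgenic minus wild type with no covariate, two-sided, with Benjamini-Hochberg adjustment over all of them and a threshold of 0.05. The fit was tested on simulated data with independent probes. It recovered 48.2% of changes of 1 log2 unit and 93.6% of changes of 2 log2 units, and 4.06% of its calls were false. All differences of the coat genes were below 1 log2 unit, and changes of that size were not simulated. A single gene symbol was given for 34885 probes and several for 18; these 18 and the 10378 others stay unnamed. RefSeq held the Entrez identifier of 34807 probes. A gene stands for its tested probe with the highest mean. Named genes were all members, the 3 tested genes with the lowest p in each list, and the 5 genes most like Cav1 and Cavin1. Insr, Slc2a4, Ehd1, Ehd3, Ehd4, Pacsin1, Pacsin2, Cavin4, Myl1, Adipoq, Sfrp5, Cst11, Adam7 and Tpm3 were named outside that rule, after their values were seen. The members and lists were chosen with earlier results of these data known. Correlations used exact permutation tests (Python 3.11.15, numpy 2.4.6). Alternatives changed the background, offset, scaling, table, filter, weights, prior and probe choice, left out each mouse or, added after seeing the data, took the arrays' brightness set as a block.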

Additional observations from a re-analysis of the deposited data

Results flagged for a closer look

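A gap test within each genotype compared the distance of the most extreme mouse from its nearest neighbour with the range of the group, for the 11 tested probes and the 4 fat pad growth genes. It set apart 6 of 30 groups, where chance sets apart about 1 in 20. In all 6 transgenic mouse 152 was the lowest of its group. The share of the range taken by the gap was 0.845 for Cavin1, 0.785 for Cavin3 and 0.746 for Ehd2, each at the brightest probe. It was 0.850 for Sfrp5, 0.797 for Npr3 and 0.804 for Bmp3. These genes vary together, so the 6 do not count separately. Of the transgenic mice, mouse 152 also had the lowest adipocyte, endothelial, macrophage, stromal, striated muscle and caveola cargo levels and the highest epididymis level. Its smooth muscle and mesothelial levels were not the lowest, and its level of other caveolar membrane genes was the highest. Its median intensity, 192, was the highest of all arrays, and its array weight, 0.369, was the lowest of the transgenic mice. The part of these in its coat gene values was not tested.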

How the results depend on the processing

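The 6 differences were recomputed under 20 alternatives each. Of 120 values, 108 kept the direction and the side of the threshold, 2 passed in addition and 10 turned sign. With the brightness set of the arrays as a block, chosen after seeing the data, Cav1 (-0.053), Cav2 (-0.43) and Cavin3 (-0.16) turned and 9 probes passed over the whole array. Without normalization between arrays, 2 of the 6 genes passed (Cavin1 at 0.86, Ehd2 at 1.02) and 4910 probes passed in all, where most probes shifted up. The sign turned for Cav2 with array weights (-0.073) and for Cavin2 with 75th percentile scaling (-0.095). With 1 mouse left out, Cav2 ranged from -0.060 (without 159) to 0.72, and Cavin2 from -0.11 (without 143) to 0.13, also turning below 0 without 147, 163 or 164. The count of probes passing over the whole array, 16, was 9 with no filter on dim probes, 1 among probes detected at p under 0.01 on all 9 arrays, 353 with array weights (170 higher) and 9 to 50 with 1 mouse left out. The number of correlated pairs, 9, was 4 (without 159) to 10 with 1 mouse left out. The causes were not tested. With 5 and 4 arrays, the upper confidence bounds of the 6 differences run from 0.44 (Cavin2) to 1.44 (Cav2), and values inside the intervals could not be told apart here.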
